A study of Mus musculus with 12 samples.

Results

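Bcl2, Bcl2l1, Mcl1, Pim1, Pim3, Bcl6, Bax and Bcl2l11 are genes of cell survival and BCL6 that STAT5 is known to control in other tissues, or that act in the same death pathway. They were chosen by name, with earlier results of these data known. Their probe sets were taken from the annotation of the Affymetrix mouse array. Of the 8 genes, 7 had a named probe set, out of 18193 genes in all, and 27 probe sets named them. Bax, which forms pores in the mitochondrial membrane, was not analysed here. All 7 passed the filter on low values, as did 12654 genes in all. Each gene is given by its brightest probe set over the 12 arrays, with the others beside it. Values are MAS5 signal, the Affymetrix summary of a probe set's brightness, and fold changes are on the log2(signal + 25) scale.

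RNA was measured in muscle of 4 groups of 3 mice. Mice of the KO+GH group lacked Stat5a and Stat5b and had received growth hormone (GH), and WT+GH mice were wild type with GH. KO mice lacked both genes and had no GH, and WT mice had neither the deletion nor GH. The series title places the study in skeletal muscle, but in the treatment field the deletion is said to be in blood cells. Strain, sex, age, GH dose and duration, and what drives the deletion are not given in the sources used here. Titles carry a separate number for each array, taken here as separate animals, and p-values rest on the spread between these arrays. An M stands before the number on all arrays with GH and on none without, and what it means is not stated.

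GH binds its receptor on the cell surface, the receptor-bound kinase JAK2 phosphorylates STAT5A and STAT5B, and these move to the nucleus and bind DNA. In blood cells STAT5 is known to raise the survival genes Bcl2l1, Bcl2 and Mcl1 and the kinase genes Pim1 and Pim3. In mouse liver STAT5 is known to hold down Bcl6, which encodes a repressor that binds many of the same sites. Survival proteins of the BCL2 family hold BAX and BAK1 in check on mitochondria, and BIM, the product of Bcl2l11, binds and blocks the survival proteins.

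The 8 markers of skeletal muscle fibres had a median percentile of 99.98 among probe sets with a gene. Of 9 lymphocyte markers 1 passed the filter, and their summed signal was 250 to 386.5 on all arrays, with none at 0. The deleted genes were lower in the knockouts: with GH Stat5b fell by 2.23, and without GH it fell by 2.66, on the log2 scale (limma, adjusted p = 1.16e-08 and 1.87e-09). Stat5a fell by 1.21 and 1.27 (adjusted p = 0.00231 and 0.00483). Arrays with GH differed from the others in technical controls. Poly-A spike-in transcripts had a geometric mean signal of 487 to 533 with GH and 151 to 173 without, so the GH effect and whatever set these controls apart cannot be told apart. Beta actin probe sets at the 3 prime end, divided by those at the 5 prime end, report on RNA quality. This actin ratio was 0.962 to 1.01 in KO+GH, 0.887 to 0.932 in WT+GH, 0.812 to 0.864 in KO and 0.805 to 0.855 in WT. Summed neutrophil markers, 9 genes led by S100a8 and S100a9, were 1625 to 1840 in KO+GH, 2950 to 3079 in WT+GH, 357.1 to 414.4 in KO and 437.6 to 626.7 in WT. Median replicate SD on the log2 scale was 0.0997 in KO+GH, 0.135 in WT+GH, 0.166 in KO and 0.177 in WT.

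With GH, knockout muscle had more Bcl2l11 RNA and less Pim3 and Bcl6 RNA than wild-type muscle. Bcl2l11 was 2.75-fold higher in KO+GH, Pim3 was 1.87-fold lower and Bcl6 1.73-fold lower. So 3 of 7 genes passed limma's threshold (adjusted p below 0.05), 1 higher and 2 lower, against 4.53% of all genes tested (2.42% higher and 2.11% lower). The median log2 fold change was -0.292 over the 7 genes and -0.016 over all genes. Without GH, 0 of the 7 passed, against 1.45% of all genes (0.774% higher and 0.68% lower), and their log2 fold changes of KO over WT ran from -0.13 to 0.20. None of the 7 had an unadjusted p under 0.05 there, the lowest being 0.262 for Pim1. In bulk muscle, fewer cells of a type and less RNA per cell cannot be told apart.

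**Figure D1:**
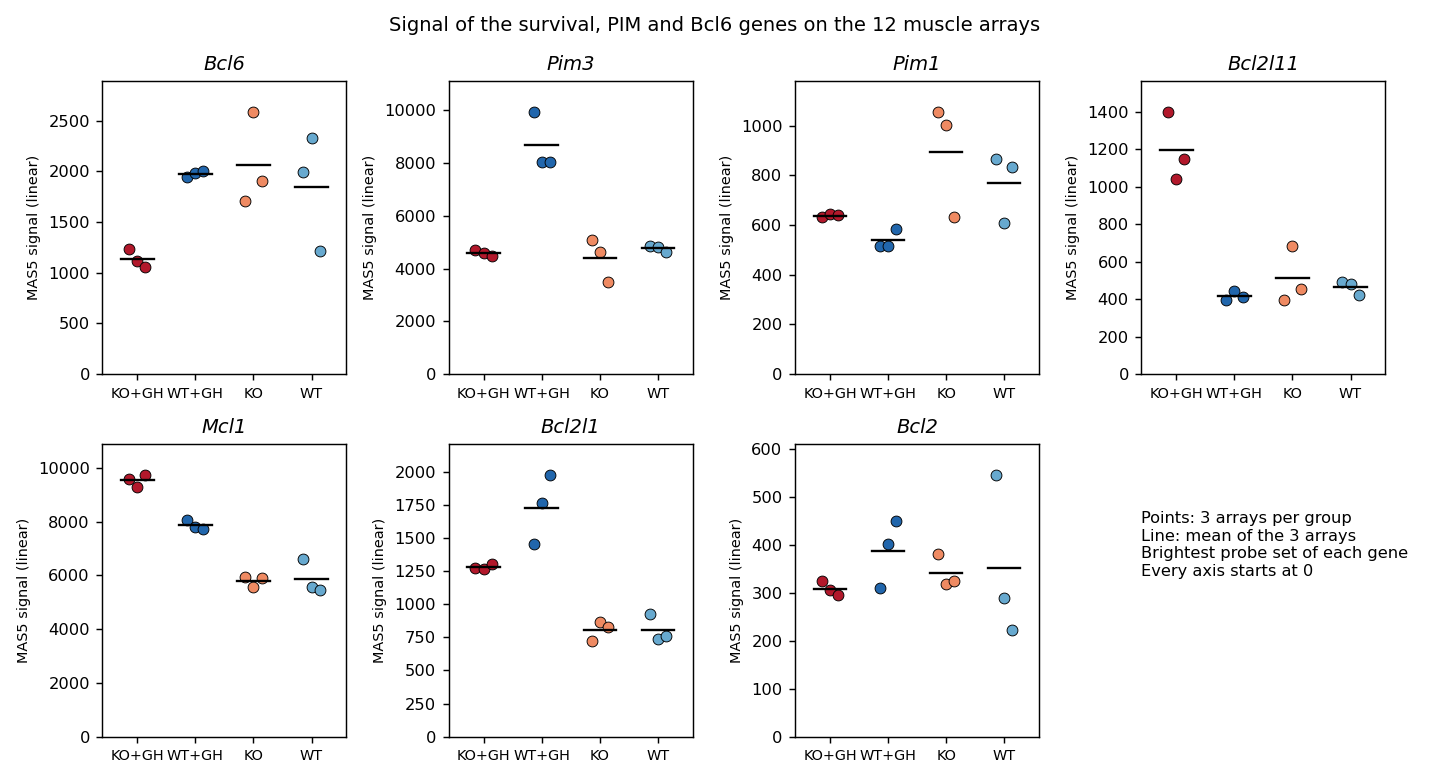
MAS5 signal on a linear axis that starts at 0, for the brightest probe set of each of the 7 genes, with 1 point per array, 3 arrays per group, and a line at the group mean. Bcl2l11 is highest on the 3 KO+GH arrays (1044 to 1397), Bcl6 is low there (1056 to 1236, with 1 WT array at 1220) and Pim3 is highest on the 3 WT+GH arrays (8035 to 9915).

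Bcl2l11 encodes BIM, a BH3-only protein that triggers death by binding the survival members of the family. Its signal was 1397, 1044 and 1151 on the KO+GH arrays and 393, 445.7 and 414.1 on the WT+GH arrays. Without GH it was 394.5, 685.6 and 452 in KO and 490, 480.6 and 420.7 in WT. The KO+GH arrays lay above all 9 others, while the WT+GH, KO and WT arrays overlapped. The log2 fold change of KO+GH over WT+GH was 1.46 ± 0.165 (SE, 95% interval 1.11 to 1.81, limma adjusted p = 5.66e-05). Within the knockouts the log2 fold change of KO+GH over KO was 1.22 ± 0.165 (adjusted p = 0.000107). In wild type, WT+GH over WT gave -0.14 ± 0.165 (adjusted p = 0.595, interval -0.49 to 0.21). The GH effect in KO minus that in WT, the interaction, was 1.36 ± 0.233 (adjusted p = 0.00736). It passed for 2 of the 7 genes, higher for Bcl2l11 and lower for Pim3, against 0.933% of all genes tested (0.624% higher and 0.308% lower).

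Bcl2l11 has 4 other probe sets. When each probe set was tested on its own, 3 of the 5 were higher in KO+GH than in WT+GH, against 4.15% of all probe sets called in either direction, and all 5 had a positive log2 fold change (0.33 to 1.46). The interaction was positive for all 5 (0.29 to 1.36) and passed for the brightest alone, against 0.841% of all probe sets. With the mean of all its probe sets as the value of the gene, the interaction was 0.74 (adjusted p = 0.06). The size of the Bcl2l11 change therefore depended on the probe set, while the call between KO+GH and WT+GH held in all 24 alternatives. The actin ratio was also highest in KO+GH, and its part in the result was not tested.

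The GTAAACA letters, the core that FOXO factors bind, occur once in the promoter window of the upstream Bcl2l11 start, counted on both strands. Bcl2l11 is known as a target of FOXO3, so this window is shown, with the match in capitals. It spans chr2:128125788-128126087 on the plus strand of GRCm38.p6 (RefSeq), 250 bases before to 50 after the start, and the match begins at base -227.
Bcl2l11 upstream start: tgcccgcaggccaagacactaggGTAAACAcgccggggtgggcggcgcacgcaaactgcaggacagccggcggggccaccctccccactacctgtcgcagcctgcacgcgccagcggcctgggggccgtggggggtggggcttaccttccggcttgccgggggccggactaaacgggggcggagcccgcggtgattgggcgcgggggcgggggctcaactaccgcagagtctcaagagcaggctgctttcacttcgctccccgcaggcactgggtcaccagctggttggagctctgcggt
The same letters were in 3.65% of all 32851 promoter windows. Among the windows of the 7 measured genes the only other match was at the downstream Pim1 start, at base -70. A match describes letters in this window and is not a binding site.

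Pim3 encodes a serine/threonine kinase that phosphorylates the death protein BAD and so favours survival. Its signal was 4714, 4580 and 4472 on the KO+GH arrays and 9915, 8035 and 8048 on the WT+GH arrays. Without GH it was 5099, 4638 and 3486 in KO and 4842, 4834 and 4625 in WT. The WT+GH arrays lay above all 9 others. The log2 fold change of KO+GH over WT+GH was -0.91 ± 0.118 (interval -1.16 to -0.66, limma adjusted p = 0.000203). WT+GH over WT gave 0.85 ± 0.118 (adjusted p = 0.000178), and KO+GH over KO gave 0.08 ± 0.118 (adjusted p = 0.69, interval -0.18 to 0.33). The interaction was -0.78 ± 0.166 (adjusted p = 0.0379).

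The brightest Pim3 probe set is an _x_at design, which may also bind related sequences. The next, without that mark, gave 1048, 985.4 and 934.9 in KO+GH, 1820, 2042 and 1990 in WT+GH, 1599, 1551 and 1055 in KO, and 1283, 1358 and 1363 in WT. Here the knockouts with GH were below all other arrays, and KO+GH over KO was -0.47 (adjusted p = 0.0156), the opposite sign to the brighter probe set. The drop relative to WT+GH was -0.96 and the interaction -1.01 (adjusted p = 0.000339 and 0.0136), so both probe sets passed in both tests. Of all probe sets, 4.15% and 0.841% were called in these tests. The third Pim3 probe set was below the filter. Leaving out any 1 array except KO 3 raised the adjusted p of the Pim3 interaction to between 0.0537 and 0.115, at values of -0.83 to -0.66. The fold between KO+GH and WT+GH passed without any 1 array (-0.96 to -0.81). Neutrophil markers were also lower in KO+GH than in WT+GH, with 2 of 6 tested past the threshold (S100a9 and Ngp). Of all genes tested, 4.53% were called there in either direction and 2.11% were called lower in KO+GH. The part of these markers in the Pim3 result was not tested.

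Pim1 encodes a kinase related to PIM3, first known as a site of virus insertion in mouse lymphomas. Its signal was 633.1, 643.6 and 639.7 in KO+GH, 514.8, 514.2 and 585.7 in WT+GH, 1054, 1004 and 631 in KO, and 866.5, 608.1 and 832.8 in WT. WT+GH arrays lay below WT arrays, while KO 3 was just below the lowest KO+GH array and the other KO arrays were above all of them. The log2 fold change was -0.44 ± 0.168 for KO+GH over KO and -0.48 ± 0.168 for WT+GH over WT, and neither passed (limma adjusted p = 0.0708 and 0.0586). Without KO 3 these were -0.67 and -0.48 (adjusted p = 0.00331 and 0.0119). The other Pim1 probe set had -0.44 in the knockouts (adjusted p = 0.13) and fell by 0.70 in wild type (adjusted p = 0.0244). KO+GH over WT+GH was 0.24 ± 0.168 (adjusted p = 0.538, interval -0.12 to 0.60), so the kinase genes Pim1 and Pim3 had opposite signs there. The difference between them was not tested.

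Bcl6 encodes a transcriptional repressor, best known from germinal centre B cells and, in liver, as a counterpart of STAT5. Its signal was 1236, 1118 and 1056 on the KO+GH arrays and 1941, 1988 and 2001 on the WT+GH arrays. Without GH the arrays spread more, with 1709, 2583 and 1911 in KO and 1992, 2327 and 1220 in WT. KO+GH was apart from WT+GH and from KO, whereas WT overlapped with both GH groups, WT 3 lying within the KO+GH range. The log2 fold change of KO+GH over WT+GH was -0.79 ± 0.189 (interval -1.19 to -0.38, limma adjusted p = 0.0266), and KO+GH over KO was -0.83 ± 0.189 (adjusted p = 0.00579). WT+GH over WT gave 0.15 ± 0.189 (adjusted p = 0.636), and the interaction was -0.98 ± 0.268, which did not pass (adjusted p = 0.143).

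The call of Bcl6 between KO+GH and WT+GH needed all 6 arrays with GH. Without any 1 of them the log2 fold change was -0.85 to -0.74 and the adjusted p 0.0621 to 0.121. A fit of the 6 GH arrays alone gave an adjusted p of 2.35e-05. The other Bcl6 probe set had 461.1, 417.5 and 444.2 in KO+GH, 866.2, 911 and 738.1 in WT+GH, 878.3, 1777 and 1324 in KO, and 1593, 1456 and 845.5 in WT. It had -0.89 for KO+GH over WT+GH (adjusted p = 0.0532) and fell by 1.48 for KO+GH over KO (adjusted p = 0.000601). For WT+GH over WT it gave -0.57 (adjusted p = 0.112), against 0.15 for the brighter probe set.

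The letters TTCNNNGAA, the palindrome that STAT5 dimers bind and that BCL6 sites resemble, stand in both promoter windows of Bcl6, on chromosome 16, minus strand, GRCm38.p6 (RefSeq). The windows are shown because Bcl6 was the only 1 of the 7 measured genes with such a match. Capitals mark the matches. The upstream window, chr16:23988803-23989102, holds 1 match, TTCTCAGAA at base -118. The downstream window, chr16:23981234-23981533, holds 3 matches without overlap, TTCCTGGAA at -168, TTCTGTGAA at -122 and TTCCGGGAA at -88.
Bcl6 upstream start: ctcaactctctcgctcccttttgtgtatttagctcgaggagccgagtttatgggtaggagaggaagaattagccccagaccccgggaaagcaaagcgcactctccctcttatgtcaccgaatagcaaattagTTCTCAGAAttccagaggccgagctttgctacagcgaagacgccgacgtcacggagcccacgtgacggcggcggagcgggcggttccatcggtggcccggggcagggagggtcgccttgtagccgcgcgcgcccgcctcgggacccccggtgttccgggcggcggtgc
Bcl6 downstream start: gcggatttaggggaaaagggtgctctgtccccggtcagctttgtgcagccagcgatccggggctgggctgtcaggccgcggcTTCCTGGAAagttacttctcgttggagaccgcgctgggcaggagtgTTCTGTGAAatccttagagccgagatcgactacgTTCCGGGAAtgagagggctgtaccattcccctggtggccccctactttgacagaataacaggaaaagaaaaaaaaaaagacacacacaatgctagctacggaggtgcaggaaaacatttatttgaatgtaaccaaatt
At least 1 match was in 8.3% of all 32851 promoter windows, and 3 or more were in 11 windows. Being a palindrome, the motif reads the same on both strands. The other 6 genes measured here had no match in their windows, which says only that the letters are not there.

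**Figure D2:**
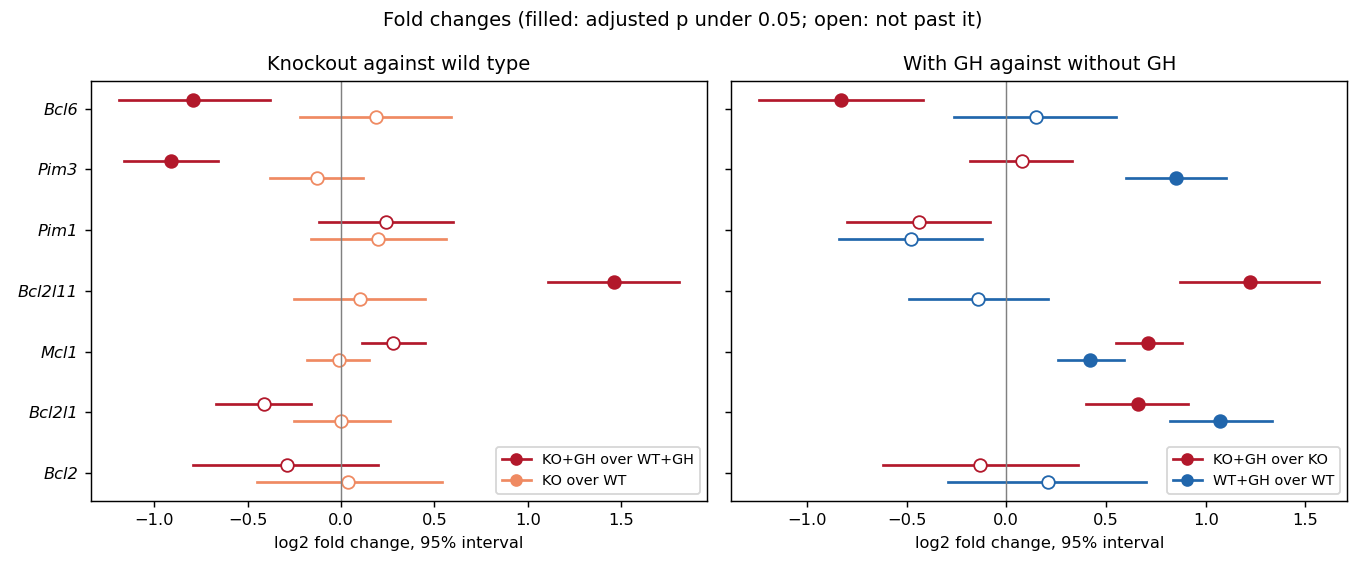
Log2 fold changes with 95% intervals from limma for 7 genes, KO+GH over WT+GH and KO over WT on the left, KO+GH over KO and WT+GH over WT on the right. Filled points have an adjusted p below 0.05: Bcl2l11, Pim3 and Bcl6 are filled between KO+GH and WT+GH, and no point is filled between KO and WT.

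By their brightest probe sets, Mcl1 and Bcl2l1 RNA was higher with GH in both genotypes. Tested singly, 1 of 3 Bcl2l1 probe sets passed in the knockouts and 2 of 3 in wild type, against 23.7% and 18.5% of all probe sets. In WT+GH 3 of 7 genes rose relative to WT (Bcl2l1, Pim3 and Mcl1) and 0 fell (1 at an unadjusted limma p under 0.05, Pim1), against 19.1% of all genes (7.33% higher and 11.8% lower). In KO+GH 3 of 7 rose relative to KO (Bcl2l11, Mcl1 and Bcl2l1) and Bcl6 fell, against 24.3% of all genes (8.93% higher and 15.4% lower). Markers of other cells moved with GH too. Of 8 muscle fibre markers 7 fell in KO+GH relative to KO. Of 10 macrophage markers 6 fell and 1 rose for KO+GH over KO, and 4 fell and 1 rose for WT+GH over WT. The rise was Cd14 in both genotypes (0.67 and 0.61 on the log2 scale, adjusted p = 0.00692 and 0.0149). Of 5 adipocyte markers 3 fell in each genotype, as did 3 of 6 endothelial markers, and 3 of 6 neutrophil markers tested rose in each. Their part in the GH results was not tested. The 4 comparisons share groups, so their values are given side by side and not set against each other.

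Mcl1 encodes a short-lived survival protein. Its signal was 9577, 9303 and 9730 in KO+GH, 8061, 7792 and 7720 in WT+GH, 5929, 5576 and 5903 in KO, and 6598, 5571 and 5441 in WT. The arrays with GH lay above all those without, and KO+GH lay above WT+GH. The log2 fold change was 0.71 ± 0.0781 for KO+GH over KO and 0.42 ± 0.0781 for WT+GH over WT (limma adjusted p = 1.42e-05 and 0.00162). All 6 Mcl1 probe sets passed in both comparisons (0.47 to 0.98 in the knockouts and 0.22 to 0.46 in wild type), against 23.7% and 18.5% of all probe sets.

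Between KO+GH and WT+GH, Mcl1 had a log2 fold change of 0.28 ± 0.0781 (interval 0.11 to 0.45), which missed the threshold (adjusted p = 0.0569). Tested singly, 3 of its 6 probe sets passed, against 4.15% of all probe sets, and all 6 had a positive value (0.22 to 0.40). The 6 probe sets were read on the same arrays and are not replicates of each other. The call of Mcl1 was made in 7 of 24 alternatives, among them the mean of all its probe sets (0.31, adjusted p = 0.0146). The interaction was 0.29 ± 0.11 (adjusted p = 0.346).

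Bcl2l1 encodes BCL-XL, the survival protein through which STAT5 is known to protect red cell precursors. Its signal was 1270, 1268 and 1301 in KO+GH, 1450, 1762 and 1973 in WT+GH, 723.3, 866.7 and 826.1 in KO, and 923.1, 734.1 and 758.1 in WT. WT+GH arrays were highest, KO+GH arrays next, and KO and WT overlapped. WT+GH over WT was 1.07 ± 0.119 and KO+GH over KO was 0.66 ± 0.119 on the log2 scale (limma adjusted p = 2.45e-05 and 0.0011). KO+GH over WT+GH was -0.41 ± 0.119 (interval -0.67 to -0.16, adjusted p = 0.063), and the interaction was -0.42 ± 0.168 (adjusted p = 0.382). The difference between KO+GH and WT+GH passed in 5 of 24 alternatives. These were without WT+GH 1 (-0.53, adjusted p = 0.0232), without WT 1, without WT 1 and KO 3 together, with only the arrays compared, and with quantile normalization (-0.41 in each, adjusted p = 0.0329, 0.0275, 0.0195 and 0.0477).

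A dimmer Bcl2l1 probe set gave 237, 202.4 and 195.6 in KO+GH, 447.3, 440.3 and 350.5 in WT+GH, 220.6, 205.9 and 195.6 in KO, and 202.8, 230.6 and 256.5 in WT. Only the WT+GH arrays were raised on this probe set. KO+GH over WT+GH was -0.88 (adjusted p = 0.00176), WT+GH over WT was 0.78 (adjusted p = 0.00168) and KO+GH over KO was 0.02 (adjusted p = 0.927). The third probe set passed in neither GH comparison (0.34 in the knockouts and 0.22 in wild type), and the fourth was below the filter.

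Bcl2, the founding survival member, had no call with its brightest probe set. The signal was 324.8, 305.9 and 296.2 in KO+GH, 310.8, 402.2 and 450.6 in WT+GH, 381.2, 318.1 and 324.7 in KO, and 545.6, 290.3 and 222.3 in WT. WT 1 was the highest and WT 3 the lowest of all 12 arrays, so the WT group spanned the others. Over the 4 comparisons of 2 groups its log2 fold changes ran from -0.29 ± 0.231 for KO+GH over WT+GH to 0.21 ± 0.231 for WT+GH over WT (adjusted p = 0.598 and 0.582). Without WT 1, WT+GH over WT was 0.55 (adjusted p = 0.0332).

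The 5 Bcl2 probe sets did not move alike. The dimmest gave 150.1, 143.5 and 126.4 in KO+GH, 125.3, 207.2 and 144.4 in WT+GH, 32.66, 52.16 and 35.94 in KO, and 37.86, 68.64 and 78.13 in WT. It was higher with GH by 1.35 in the knockouts and 1.09 in wild type on the log2 scale (adjusted p = 0.00119 and 0.00625). The next dimmest, an _x_at design, rose by 0.68 for KO+GH over KO (adjusted p = 0.0237). The 3 brighter ones did not pass in either GH comparison, so the probe sets disagree on whether Bcl2 RNA changed with GH. When all its probe sets were averaged, WT+GH over WT was 0.42 (adjusted p = 0.0489), against 0.21 with the brightest.

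**Figure D3:**
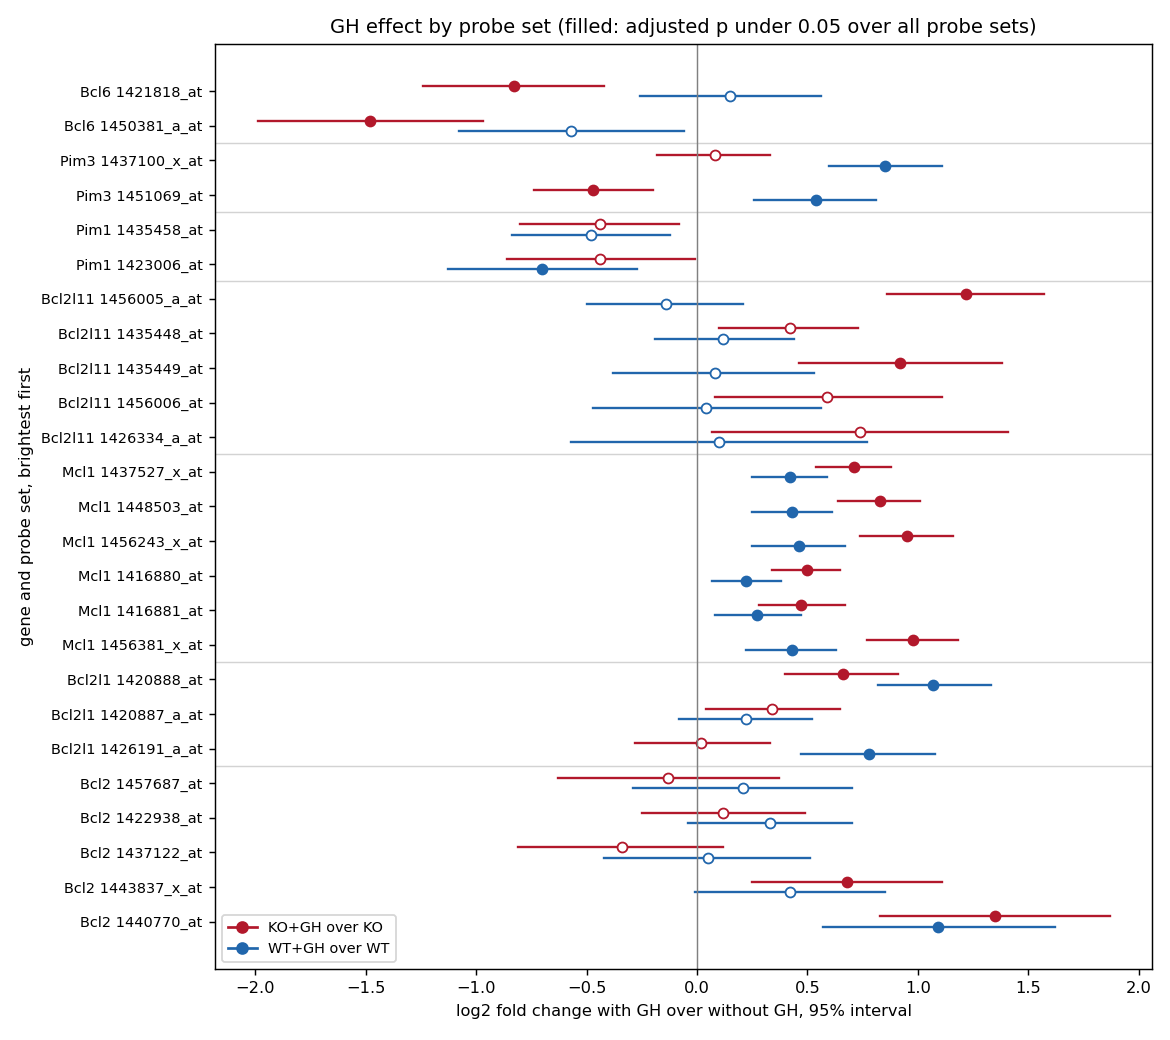
Log2 fold change with GH over without GH in knockouts and in wild type, with 95% intervals, for the 25 probe sets of the 7 genes that passed the filter, brightest first within a gene. All 6 Mcl1 probe sets are filled (adjusted p below 0.05) in both genotypes, while those of Bcl2, Bcl2l1 and Bcl2l11 are filled for some and open for others.

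Averaged over both GH conditions, 2 of 7 genes differed by genotype, against 5.34% of all genes (2.88% higher and 2.47% lower). Bcl2l11 rose by 0.78 ± 0.117 and Pim3 fell by 0.52 ± 0.0832 on the log2 scale (limma adjusted p = 0.000648 and 0.00114). Both averages join a difference seen with GH to values of 0.10 and -0.13 without it. The brightest Bcl2l1 probe set did not pass (-0.21, adjusted p = 0.205). Tested singly, all 3 Bcl2l1 probe sets above the filter had negative averages (-0.51 to -0.21). Of these 1 passed (-0.51, limma adjusted p = 0.00775), against 4.5% of all probe sets.

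Of 10 pro-apoptotic relatives tested, 1 was lower in KO+GH than in WT+GH, the mitophagy receptor Bnip3 (-0.32 ± 0.0733, limma adjusted p = 0.0192), and 9 did not pass. Over all genes 4.53% were called there (2.42% higher and 2.11% lower). The median of the 10 was 0.0319, against -0.016 over all genes. For KO+GH over KO 1 rose and 3 fell, against 24.3% of all genes (8.93% higher and 15.4% lower), with a median of -0.274 against -0.065 over all genes. The BH3-only gene Bmf rose by 0.70 ± 0.17, and Bad, a PIM substrate, fell by 0.88 ± 0.188 (adjusted p = 0.00791 and 0.00368). Bak1, the effector related to Bax, and Bcl2l13 fell by 0.60 ± 0.18 and 0.28 ± 0.0953 (adjusted p = 0.0254 and 0.0464). For WT+GH over WT 0 of the 10 passed limma's adjusted threshold, against 19.1% of all genes. An unadjusted limma p under 0.05 was found for 3 of the 10 and for 4120 of 12654 genes. The median of the 10 was -0.161, against -0.055 over all genes. Of the survival relatives only Bcl2l2 was tested, and it fell by 0.33 ± 0.106 in KO+GH relative to KO (adjusted p = 0.0347).

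Among 14 caspases and their regulators, Casp12 was the only gene past the threshold between genotypes. Over all genes 4.53% passed between genotypes with GH and 1.45% without. Casp12 encodes a caspase of the endoplasmic reticulum, and its signal was 235.1, 267.8 and 300.4 in KO+GH and 718.1, 624.6 and 682.4 in WT+GH. Without GH it was 249.4, 191.9 and 318.3 in KO and 881.8, 817.5 and 967.2 in WT. It fell by 1.26 ± 0.151 with GH and by 1.74 ± 0.151 without (limma adjusted p = 8.97e-05 and 1.57e-05), a pattern that none of the 7 genes had. For KO+GH over KO 0 of the 14 rose (1 at an unadjusted limma p under 0.05) and 3 fell, among them Cycs, which encodes cytochrome c (-0.50 ± 0.0991, adjusted p = 0.00226). That share is near the 24.3% of all genes called there. For WT+GH over WT 2 rose and 1 fell, against 19.1% of all genes called. The rises were in the inhibitor of apoptosis Birc3 (0.71 ± 0.192) and the death receptor gene Fas (0.98 ± 0.319), with limma adjusted p = 0.0181 and 0.0445. Fas groups overlapped, at 395.2, 592 and 258.2 in WT+GH and 167.2, 338.9 and 110.8 in WT.

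Of 10 genes encoding the PIM relative PIM2 and PIM substrates, 0 passed limma's adjusted threshold in KO+GH over WT+GH, against 4.53% of all genes. An unadjusted limma p under 0.05 was found for 4 of the 10 and for 2090 of 12654 genes. The median of the 10 was 0.0794, against -0.016 over all genes. For KO+GH over KO 4 rose and 3 fell, against 24.3% of all genes, and for WT+GH over WT 3 rose and 2 fell, against 19.1%. Foxo3, whose product is known to switch on Bcl2l11 and Bcl6, rose by 0.82 ± 0.0942 in KO+GH over KO and 0.54 ± 0.0942 in WT+GH over WT (limma adjusted p = 2.51e-05 and 0.00106). Its log2 fold change for KO+GH over WT+GH was 0.16 ± 0.0942 (adjusted p = 0.45). The cell cycle inhibitor Cdkn1a rose 4-fold and 2.63-fold in the same comparisons (adjusted p = 7.28e-06 and 0.000235). Myc rose by 1.60 ± 0.138 and 0.89 ± 0.138 (adjusted p = 1.39e-06 and 0.000431).

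Among 12 FOXO factors and genes responsive to FOXO or glucocorticoid, 1 rose and 4 fell in KO+GH relative to WT+GH, and 7 did not pass (median -0.13), against 4.53% of all genes called and a median of -0.016. The falls were Klf15 (-1.55 ± 0.105), Fbxo32 (-1.25 ± 0.112), Ddit4 (-1.69 ± 0.193) and Foxo1 (-0.81 ± 0.128), with limma adjusted p = 2.1e-07, 5.05e-06, 0.000101 and 0.00104. The rise was Trim63 (0.54 ± 0.137, adjusted p = 0.0339). With GH, 8 of the 12 rose and 1 fell for KO+GH over KO and 9 rose for WT+GH over WT, against 24.3% and 19.1% of all genes. Among the 4 genes lower in KO+GH than in WT+GH, Ddit4 and Foxo1 rose with GH in both genotypes, by 2.78 and 1.16 in the knockouts and by 3.65 and 1.47 in wild type (adjusted p at most 1.5e-05). Klf15 rose by 1.69 in wild type (adjusted p = 9.39e-08) and had 0.28 in the knockouts (adjusted p = 0.0665). Fbxo32 fell by 0.84 in the knockouts (adjusted p = 9.09e-05) and had 0.15 in wild type (adjusted p = 0.38).

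Of 5 tested genes that encode the BCL6 relative BCL6B and co-repressors, 0 passed limma's adjusted threshold in KO+GH over WT+GH, against 4.53% of all genes. An unadjusted limma p under 0.05 was found for 1 of the 5 and for 2090 of 12654 genes. The median of the 5 was -0.0486, against -0.016 over all genes. For KO+GH over KO the co-repressor gene Bcor rose by 0.97 ± 0.215 (limma adjusted p = 0.00445). Bcl6b and Bcorl1 fell by 1.04 ± 0.256 and 1.19 ± 0.402 (limma adjusted p = 0.00845 and 0.0431), against 24.3% of all genes called. Bcorl1 was dim and its groups overlapped, at 10.93, 62.64 and 124.6 in KO+GH and 192.2, 165.3 and 109.6 in KO. Of 8 tested genes that BCL6 is known to repress in other cells, 1 fell in KO+GH relative to WT+GH, namely Socs2, which is also a STAT5 target (-1.19 ± 0.159, adjusted p = 0.000283), and 7 did not pass (median -0.192), against 4.53% of all genes and a median of -0.016. For KO+GH over KO 3 of the 8 rose (Cdkn1a, Socs2 and Cish) and 2 fell (Ccnd1 and Ccnd2), against 24.3% of all genes. For WT+GH over WT, where Bcl6 did not pass, Cdkn1a also rose and Ccnd1 and Ccnd2 also fell, against 19.1% of all genes.

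Of 10 other STAT5 targets, which share 4 genes with that list, 1 rose and 1 fell in KO+GH relative to WT+GH (median 0.0209), against 4.53% of all genes and a median of -0.016. In KO relative to WT 2 fell (median -0.133), against 1.45% and -0.003 over all genes. Without GH these were Socs2 and Cish, feedback inhibitors of the receptor (-2.29 ± 0.159 and -3.02 ± 0.461, limma adjusted p = 1.74e-06 and 0.0134). With GH they were Socs3, which rose by 2.22 ± 0.303, and Socs2 (adjusted p = 0.00108 and 0.000283). Cish had -1.59 ± 0.461 with GH, which did not pass (limma adjusted p = 0.104), though all its KO+GH arrays lay below its WT+GH arrays. Socs2 and Cish were thus lower in KO than in WT muscle where none of the 7 survival and BCL6 genes passed.

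By likeness of profile, the genes nearest to each called member were found as the smallest root mean square difference in log2 signal over 12 arrays, each gene centred on its own mean. They were chosen for these profiles, so their fold changes are a description with no test. Nearest to Bcl2l11 were Frmd6, Ankrd10 and Sox9 (0.215, 0.226 and 0.231, where the spread of Bcl2l11 about its own mean was 0.613). Their log2 fold changes for KO+GH over WT+GH were 1.13, 1.37 and 1.40. Nearest to Pim3 were Plekhm2, Sugp1 and Lrp4 (0.168, 0.172 and 0.174, own spread 0.421). Their log2 fold changes for KO+GH over WT+GH were -0.70, -0.75 and -0.60. Nearest to Bcl6 were 1700007L15Rik, Lypd6 and Lipo3 (0.221, 0.236 and 0.239, own spread 0.409). Nearest to Mcl1 were Sorl1, Il6st and Vcl (0.0853, 0.0928 and 0.098, own spread 0.309), and nearest to Bcl2l1 were Csnk1d, Prrc1 and Enah (0.125, 0.155 and 0.17, own spread 0.474).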

How the data were processed

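The authors deposited linear MAS5 intensity values of 45101 probe sets from 12 arrays of biotin-labelled RNA, and MAS5 is named per the submitters' processing notes. On every array the mean without the lowest and highest 2% of probe sets was 500, so the values carry a scaling to 1 target. No detection calls or scanner files were used here, and the number of arrays limits the precision.

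From these, log2(signal + 25) was computed. The 64 control probe sets, 932 with several symbols and 9160 with none were left out. Each of 18193 genes was represented by its brightest probe set, and 12654 genes whose mean passed the 40th percentile over non-control probe sets were kept. Fold changes of dim probe sets are understated on this scale. limma 3.58.1 (R 4.3.3, statmod 1.5.0) was fitted to all 12 arrays with 1 mean per group, 8 residual degrees of freedom, and eBayes with trend and robust settings. The 2-sided p-values were adjusted by Benjamini-Hochberg over the 12654 genes, and 0.05 was the threshold. A value after ± is an SE. Intervals are 95%. A second fit took each probe set as its own feature. "Rose" and "fell" refer to adjusted p below 0.05. The fit was checked on simulated data. Alternatives changed scaling, pseudocount, filter, probe set choice, eBayes settings and the arrays fitted. Replicate numbers follow accession order and pair nothing.

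The genes named are the 7 measured members, up to 4 called genes per list, and the 3 nearest genes of each called member. Genes named beyond that were chosen after their values were seen. Promoter windows come from RefSeq. The members and lists were chosen with earlier results of these data known.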

Additional observations from a re-analysis of the deposited data

Results flagged for a closer look

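The GH effect on Bcl2l11 differed between genotypes by a direct test: the effect in KO minus that in WT was 1.36 on the log2 scale (limma, adjusted p = 0.00736). For Pim3 the same difference was -0.78 (limma, adjusted p = 0.0379). Groups of 3 arrays are too small for a test of single outlying arrays.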

How the results depend on the processing

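The members' results were recomputed under 24 alternatives (23 for the interaction and the mean genotype effect). Of the values for single genes, 940 kept their side of the threshold, 32 gained a call, 21 lost one and 1 passed with the opposite sign. Values that did not pass could also change sign, such as Bcl2 for KO over WT (-0.22 to 0.42, main value 0.04). Without _x_at and _s_at probe sets the Pim3 effect of GH in KO was -0.47 (adjusted p = 0.0136), against 0.08 with them. Bcl2l11 and Pim3 between KO+GH and WT+GH passed in all 24. Bcl6 there also lost its call with eBayes without trend and robust settings (adjusted p = 0.0756). The interaction of Pim3 lost its call in that setting and with median centring (adjusted p = 0.146 and 0.131), and that of Bcl2l11 when all its probe sets were averaged (0.74, adjusted p = 0.06). The cause was not tested.

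Counts of members called moved as follows. Between KO+GH and WT+GH the higher count was 2, not 1, with the 60th percentile filter, the mean of all probe sets, no _x_at or _s_at probe sets, only the arrays compared, without WT 1 and KO 3 together, and median centring over the genes kept, the last chosen after seeing the data. The lower count there was 1, not 2, with the plain eBayes, and 3, with Bcl2l1 added, under quantile normalization, with only the arrays compared, and without WT 1 and KO 3. For GH in WT the higher count was 4, not 3, with Bcl2 added, when probe sets were averaged and without WT 1 and KO 3. For GH in WT the lower count was 1, not 0, with median centring, the mean of all probe sets, only the arrays compared, and without WT 1 and KO 3. For GH in KO it was 2, not 1, with median centring, no _x_at or _s_at probe sets, and without WT 1 and KO 3. The interaction lower count was 0, not 1, with median centring and plain eBayes, and its higher count was 0, not 1, when probe sets were averaged. The mean genotype higher count was 3, not 1, without WT 1 and KO 3.

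Leaving out 1 array at a time, counts ranged from 1 to 2 higher and 1 to 3 lower between KO+GH and WT+GH, 3 to 4 higher and 0 to 1 lower for GH in WT, 3 higher and 1 to 2 lower for GH in KO, 1 higher and 0 to 1 lower for the interaction, 1 to 2 in each direction for the mean genotype effect, and 0 for KO against WT. Without WT 2 the Bcl6 interaction passed (-1.17, adjusted p = 0.0353).

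Over all genes, calls numbered 573 between KO+GH and WT+GH, 1300 with only the arrays compared, 1028 without WT 1 and KO 3, and 351 to 364 without any 1 KO+GH array. Between KO and WT they numbered 184, 111 with plain eBayes and 39 with only the arrays compared. For the interaction there were 118, and 77 with plain eBayes, 208 without WT 1 and KO 3, and 75 or 76 without KO+GH 1 or 2. Median centring over all probe sets gave 4838 calls for GH in KO and 4429 for GH in WT, against 3078 and 2416. It shifted the median of all genes to -0.245 in KO and -0.24 in WT, from -0.065 and -0.055. The share of calls that were higher became 13.3% and 11.1%, against 36.7% and 38.4%, and 49.9% and 50.4% with centring over the genes kept. Under these scalings Mcl1 and Bcl2l1, by their brightest probe sets, remained higher with GH in both genotypes. No paired analysis was possible because replicate numbers follow accession order and the labels pair no arrays. The number of arrays and dim probe sets limit precision.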
